A study of Rattus norvegicus with 6 samples.

Results

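AMP-activated protein kinase (AMPK) is a heterotrimer of a catalytic alpha, a scaffolding beta and a regulatory gamma subunit, and its rat genes are Prkaa1 and Prkaa2 (alpha), Prkab1 and Prkab2 (beta), and Prkag1, Prkag2 and Prkag3 (gamma). The subunits were chosen by gene symbol, as a family whose gamma subunit Prkag2 was already known to differ between the cochlear turns in these same libraries. Of the 7 symbols, 6 matched a row among the 35790 genes of the deposited table, each a single row, and Prkag1 was not analysed here. The choice was made with values of the comparison of turns in view, so differences of the subunits between turns are given as a description, with no test.

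The libraries were made from outer hair cells, the electromotile sensory cells of the organ of Corti. All came from wild-type rats of the Sprague-Dawley strain aged 9 postnatal days, with no treatment other than the dissociation that both groups shared. There were 3 libraries from the apical turn, which responds to low frequencies, and 3 from the basal turn, which responds to high frequencies, each from 30 cells picked under a microscope after 10 min in 1 mg/ml collagenase. The labels do not say whether libraries came from separate animals, so the spread between them may be technical.

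Library totals were 16511675 to 23140976 counts, with 11244 to 16333 genes detected in each. Basal replicates 1 and 2 had the fewest genes detected (11880 and 11244), against 13094 to 16333 in apical libraries and 15668 in basal replicate 3. The part of this in single genes at 0 in those basal libraries was not tested. Of 10 marker lists, 7 outer hair cell genes took 1.97% to 3.82% of counts in apical and 0.809% to 6.38% in basal libraries, while inner hair cell markers took at most 0.00271% in any library. The Schwann cell list of 10 genes took 0.0396% to 0.0935% in apical and 0.347%, 3.69% and 2.49% in basal replicates 1, 2 and 3, with no gene at 0 in a basal library. Macrophage, red blood cell, neuron and skeletal muscle lists also had non-overlapping groups, all higher in basal libraries. Of the macrophage list, Csf1r, Lyz2, Fcer1g, Tyrobp, C1qa and Aif1 had more counts in each basal than in each apical library. Cd68 (20, 0 and 51 apical counts) and Cx3cr1 (45, 0 and 0) were at 0 in basal replicates 1 and 2. The red blood cell sum rested on Hba-a1, Hba-a2 and Hbb, while Alas2 and Slc4a1 had at most 227 counts in a library. Bone and fibrocyte genes reached 2.03% in basal replicate 3, mostly through Ibsp, with 376822 counts there. The neuron groups nearly met, at 0.0175% in basal and 0.0165% in apical replicate 1. In basal replicate 1 Snap25 had 3025 counts and Nefh 170, while Nefl had 3, Nefm 30, and Tubb3, Prph and Thy1 had 0. The skeletal muscle sum of basal libraries was mostly Myh4. Basal replicates 2 and 3 stood apart from the other 4 libraries by the Schwann cell list. In such summed libraries, fewer cells of a type and less RNA per cell cannot be told apart.

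AMPK senses the energy state of the cell. When ATP falls, AMP and ADP bind the gamma subunit and favour phosphorylation of the alpha subunit by upstream kinases, and the active enzyme restrains lipid and protein synthesis and promotes ATP production and autophagy. The beta subunit holds the trimer together and carries a glycogen-binding module. In mice, noise exposure has been reported to activate AMPK in outer hair cells, a setting in which basal cells are the more vulnerable.

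Prkag2 encodes gamma 2, a nucleotide-binding subunit in which human mutations cause a glycogen storage cardiomyopathy. In the deposited table it is ENSRNOG00000009085, on the plus strand of chromosome 4 from 6559545 to 6799632 in the table's unnamed build, a span of 240088 bases with a counted length of 3149 bases. RefSeq lists 2 start windows for it in the assembly GRCr8, 194785 bases apart, and the deposited counts merge all transcripts of the gene, so they do not tell these starts apart. The windows, which run from 250 bases before to 50 bases after each start, are printed because Prkag2 carries the widest difference between turns among the subunits in the reported fit. Capitals mark GGGCGG on either strand, the GC box.
Prkag2 upstream start, chr4:10744445-10744744, plus strand: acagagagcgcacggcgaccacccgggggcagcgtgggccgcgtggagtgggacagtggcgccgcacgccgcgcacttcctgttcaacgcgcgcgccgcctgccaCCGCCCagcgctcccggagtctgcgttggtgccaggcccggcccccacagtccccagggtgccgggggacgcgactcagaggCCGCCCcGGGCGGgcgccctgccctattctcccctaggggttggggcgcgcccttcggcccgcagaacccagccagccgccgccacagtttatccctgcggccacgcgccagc
Prkag2 downstream start, chr4:10939230-10939529, plus strand: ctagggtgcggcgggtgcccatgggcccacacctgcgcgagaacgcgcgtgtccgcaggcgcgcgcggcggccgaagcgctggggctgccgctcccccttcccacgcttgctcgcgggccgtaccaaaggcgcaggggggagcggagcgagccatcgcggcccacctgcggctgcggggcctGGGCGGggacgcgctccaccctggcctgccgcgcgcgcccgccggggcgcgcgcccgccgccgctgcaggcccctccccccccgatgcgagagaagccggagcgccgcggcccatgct
The upstream window held 3 GC boxes and the downstream window held 1. Of all 33469 RefSeq windows of this length, 33.1% held GGGCGG, and 5 of the 7 windows of the 6 subunit genes did. Searched likewise on both strands, the TATA box TATAAA was in 14.2% of all windows and in none of these 7. The CCAAT box was in 37.5% of all windows and the E-box CACGTG in 6.42%, and neither was in these 7. The G and C content was 76.0% upstream and 80.3% downstream, against a median of 51.7% over all windows.

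The apical counts of Prkag2 were 4844, 2930 and 4248 and its basal counts 117, 466 and 459, given here and below in the order of replicates 1, 2 and 3. As CPM, counts divided by the library total on a common scale, these were 212, 157 and 184 in the apical and 6.34, 28.2 and 22.6 in the basal libraries. Each apical library lay above each basal library, and the lowest value was in basal replicate 1. As FPKM (CPM further divided by gene length, a level comparable between genes), Prkag2 was at 58.5 ± 8.67 in apical and 6.05 ± 3.61 in basal cells (mean ± SD, n = 3 per turn). The fitted log2 fold change of basal over apical was -3.25 (SE 0.60), a level 9.54-fold higher in apical libraries. Of 13507 genes tested, 4.03% had a lower fold change. Groups did not overlap, with apical higher, for 1 of the 5 subunits that passed the filter on low counts, namely Prkag2, and for 10.4% of all genes tested. The family was chosen with this contrast known, so nothing is read from that count. With a library left out the log2 fold change of Prkag2 was between -3.59 and -2.84.

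**Figure D1:**
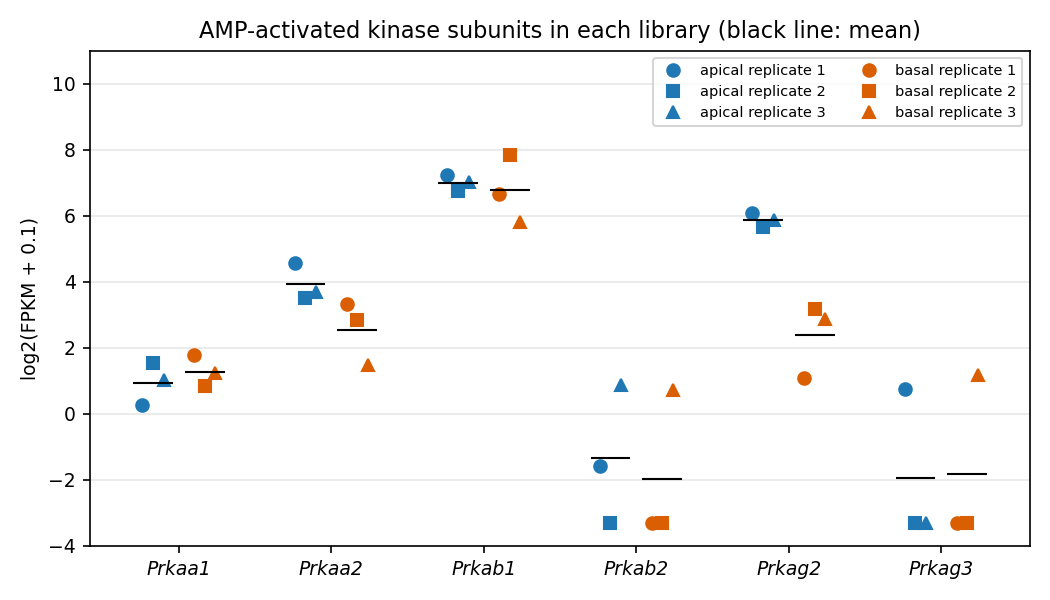
Levels of the 6 subunit genes as log2(FPKM + 0.1), with 1 point per library, blue for apical and orange for basal turn, marker shape for the replicate number and a black line for the group mean. For Prkag2 the apical points (FPKM of 49.98 to 67.3) all lie far above the basal points (2.01 to 8.96). The points of Prkaa2 are also separate on this scale, with apical FPKM of 11.2 to 23.7 and basal FPKM of 2.66 to 9.99. The points of Prkaa1 and Prkab1 intermingle.

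Basal replicate 1, where Prkag2 was lowest, had the highest share of outer hair cell markers of the 6 libraries (6.38%) and a general hair cell marker share of 0.450%, within the apical range of 0.352% to 0.575%. Its Schwann cell share of 0.347% was the lowest of the basal libraries. The general hair cell sum mixed genes that went both ways in basal replicate 1. Pou4f3 had 18087 counts there, above the 7732, 3434 and 4372 of the apical replicates. Otof had 1345 against 13169, 10632 and 11392, and Gfi1, Tmc1, Ptprq and Espn also had fewer counts than in each apical library. In each library the outer hair cell sum rested mostly on a pair of calcium buffers, whose balance differed between turns. Oncomodulin, listed as Ocm2, made up 24.7% to 42.9% of it in apical and 83.9%, 69.5% and 71.0% in basal replicates 1, 2 and 3. Calb1, calbindin, made up 47.4% to 68.9% in apical and 14.7% to 26.7% in basal libraries. Slc26a5, the prestin gene, had 866 counts in basal replicate 1 against 10009, 3921 and 2545 in apical replicates.

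Set against the markers of each library, Prkag2 had 5.998, 4.12 and 9.33 CPM per 1000 CPM of the outer hair cell list in the apical and 0.0993, 1.34 and 2.79 in basal replicates 1, 2 and 3. The groups did not overlap on that scale, and for how many of all genes this held was not computed. Per 1000 CPM of the list of 10 general hair cell genes, it had 36.8, 27.4 and 52.1 in apical and 1.41, 12.3 and 29.6 in basal libraries, and here basal replicate 3 lay above apical replicate 2. In a fit of the apical libraries against basal replicate 1 alone, added after seeing the data, the log2 fold change was -4.65. In that fit the median of all genes was also lower, at -1.21, and the spread of the lone basal library is taken from the apical libraries. Relative to the median of all genes Prkag2 stood at -3.44 there and at -3.23 in the reported fit. The part of the marker lists in the difference was not tested.

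**Figure D2:**
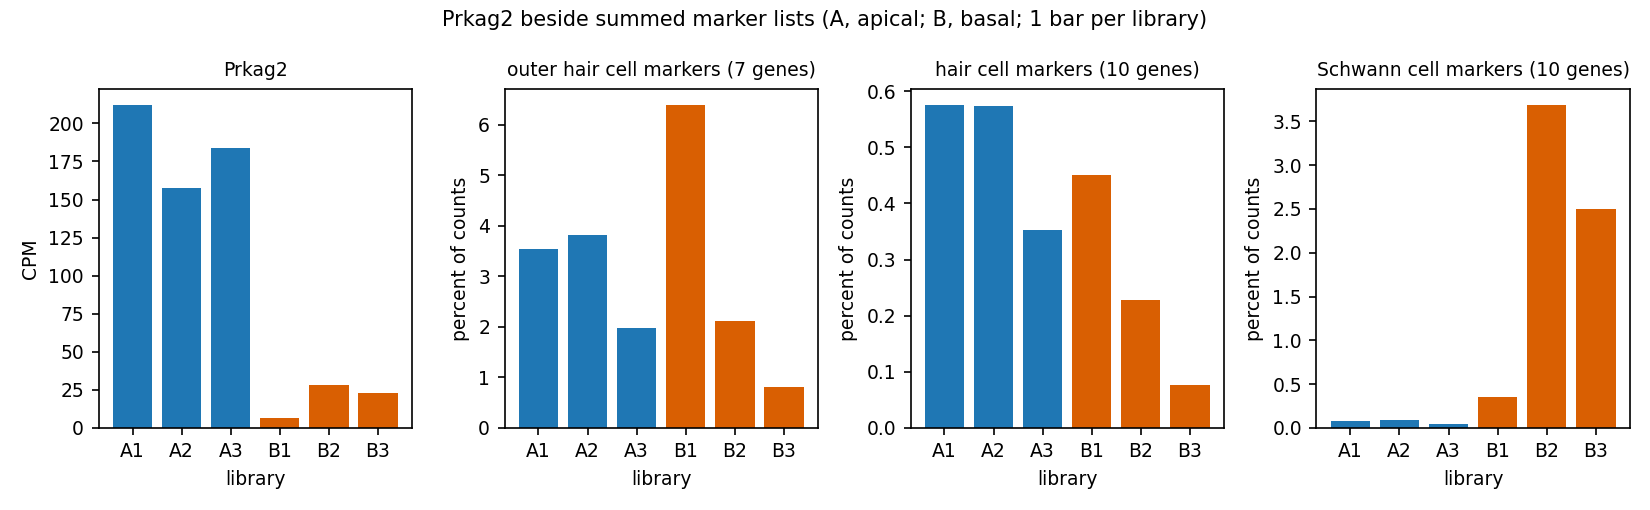
CPM of Prkag2 and the percent of counts taken by 3 marker lists, with 1 bar per library (A for apical, B for basal, numbered by replicate). Prkag2 is low in B1, B2 and B3 (6.34, 28.2 and 22.6 CPM), whereas the outer hair cell sum is highest in B1 (6.38%) and Schwann cell markers are high in B2 and B3 (3.69% and 2.49%).

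Among the catalytic subunits, Prkaa2 (alpha 2; ENSRNOG00000007706, chromosome 5, 124574079 to 124642569, minus strand) had 1437, 551 and 785 counts in the apical and 489, 309 and 143 in the basal libraries. Its level was 15.9 ± 6.83 FPKM in apical and 6.57 ± 3.69 in basal cells (mean ± SD, n = 3 per turn), with a log2 fold change of -1.18 (SE 0.85). Apical replicate 1 was high and basal replicate 3 low. After scaling by TMM the groups overlapped, since basal replicate 1 (29.8 CPM) lay just above apical replicate 2 (29.1), whereas without that scaling they were separate (26.5 against 29.6 CPM). Per 1000 CPM of the general hair cell list the ranges also overlapped, at 5.16 to 10.9 in apical and 5.88 to 9.22 in basal libraries. Whether the turns overlapped for Prkaa2 thus depended on the scaling, and the fold change of -1.18 lies beside a spread within groups of 0.85 (SD of log2 CPM). Its log2 fold change was between -1.69 and -0.78 with a library left out.

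Prkaa1 (alpha 1; ENSRNOG00000012799, chromosome 2, 54857688 to 54893404, plus strand) had 117, 242 and 210 counts in apical and 286, 130 and 212 in basal libraries. The ranges intermingled, at 1.94 ± 0.84 FPKM in apical and 2.41 ± 0.83 in basal cells (mean ± SD, n = 3 per turn), and the log2 fold change was 0.41 (SE 1.30). Per 1000 CPM of the general hair cell list the groups of Prkaa1 were separate, with basal higher, at 0.890, 2.27 and 2.58 in apical and 3.44, 3.44 and 13.7 in basal replicates 1, 2 and 3. Per 1000 CPM of the outer hair cell list they overlapped. The general list took 0.0764% of counts in basal replicate 3, against 0.352% to 0.575% in apical libraries. A gene of even CPM is therefore higher per that list in basal replicate 3. For how many of all genes the groups were separate on this scale was not computed, so nothing is read from it. Both alpha genes were detected in all 6 libraries.

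Which catalytic isoform had the higher level is a comparison within libraries, apart from the contrast of turns that entered the choice of the family. Both isoform comparisons, alpha here and beta below, were planned with earlier results of these data known. They also treat libraries as independent, although the labels do not say that these came from separate animals. Prkaa2 was above Prkaa1 per length in 6 of 6 libraries. The mean difference of log2(FPKM + 0.1), Prkaa1 minus Prkaa2, was -2.12 ± 1.34 (SD, n = 6; range -4.32 to -0.24). A two-sided exact sign-flip permutation test over the 6 libraries gave p = 0.03125, the smallest that 6 libraries allow, and the same value adjusted over the 2 isoform pairs tested. Prkaa2 took 95.6%, 80.1% and 86.8% of the summed alpha FPKM in the apical and 75.1%, 80.7% and 54.3% in basal replicates 1, 2 and 3. The isoforms were thus furthest apart in apical replicate 1 and nearly level in basal replicate 3. In raw counts, where the longer Prkaa1 (4674 against 2652 bases) gathers more reads, Prkaa2 held 40.3% of alpha counts in basal replicate 3.

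Of the scaffolding subunits, Prkab1 (beta 1; ENSRNOG00000001142, chromosome 12, 46316236 to 46326790, plus strand) was the subunit gene of highest mean level. It had 7055, 4084 and 6148 counts in apical and 3849, 7829 and 2315 in basal libraries. In FPKM this was 150, 107 and 129 in the apical and 101, 231 and 55.5 in basal replicates 1, 2 and 3. The apical values lay inside the basal range, basal replicate 2 being highest and basal replicate 3 lowest, and the log2 fold change was 0.05 (SE 0.52). Between 94.0% and 98.3% of the table's genes had a lower FPKM than Prkab1 in a library.

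Prkab2 (beta 2; ENSRNOG00000018166, chromosome 2, 199831990 to 199847629, plus strand) had 18, 0 and 136 counts in apical and 0, 0 and 106 in basal libraries. It was absent from the counts of 3 libraries, where a count of 0 allows up to 0.182 CPM, a limit that covers counting error only. Its fitted log2 fold change of -0.31 (SE 2.82) has an error far wider than the value. The authors' FPKM for Prkab2 was 1.45 times the value recomputed from its count, the listed gene length and the library total, and for the other 5 subunits the 2 values were equal to within a relative difference of 1e-06. Prkab1 was above Prkab2 in 6 of 6 libraries, by 8.55 ± 2.41 on the log2(FPKM + 0.1) scale (SD, n = 6; two-sided exact sign-flip permutation p = 0.03125, the smallest possible; the same adjusted over the 2 pairs). The size of that difference depends on the 0.1 added where Prkab2 is at 0, and over the 3 libraries with counts of both it was 6.69.

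Prkag3 (gamma 3; ENSRNOG00000017248, chromosome 9, 81999376 to 82008620, minus strand), known from skeletal muscle, had 100 counts in apical replicate 1, 120 in basal replicate 3 and 0 in the other 4 libraries, where a count of 0 allows up to 0.0663 FPKM. It did not pass the filter on low counts. The 6 skeletal muscle markers took 0.000430% to 0.00150% of counts in apical and 0.00300% to 0.00521% in basal libraries, without overlap. Of these, Ckm and Tnnt3 were at 0 in all 6 libraries, while Myh4, a muscle myosin, had 63, 80 and 1 apical and 412, 860 and 740 basal counts. The basal sum rested mostly on Myh4. Acta1 had 27, 0 and 0 apical and 140, 0 and 103 basal counts. Actn3 went the other way, with 88, 0 and 139 apical and 1, 0 and 0 basal counts. Mylpf, a muscle myosin light chain, had 31 and 117 counts in the libraries with Prkag3 counts and 206 in apical replicate 3, where Prkag3 was at 0. The part of muscle RNA in the Prkag3 counts was not tested.

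By mean FPKM over the 6 libraries the order was Prkab1 (129), Prkag2 (32.3), Prkaa2 (11.2), Prkaa1 (2.18), Prkag3 (0.625) and Prkab2 (0.582). Prkag3 and Prkab2 do not differ beyond their spread. In apical libraries Prkag2 stood above Prkaa2 in each library. In basal replicate 1 that order turned, with Prkag2 at 2.01 and Prkaa2 at 9.99 FPKM.

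The gamma 2 to beta 1 balance was close to constant among apical libraries and varied among basal ones. The ratio of Prkag2 to Prkab1 FPKM was 0.448, 0.468 and 0.451 in the apical and 0.0198, 0.0388 and 0.129 in basal replicates 1, 2 and 3. Against the summed alpha FPKM, Prkag2 stood at 2.71, 3.58 and 3.96 in apical and 0.151, 1.03 and 1.47 in basal libraries. The summed beta level exceeded the summed alpha level in each library, by 6.07, 7.66 and 8.89 times in apical and 7.63, 26.4 and 11.7 times in basal libraries. Ratios between genes depend on the gene lengths the authors used, and without Prkag1 the gamma total is not known.

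**Figure D3:**
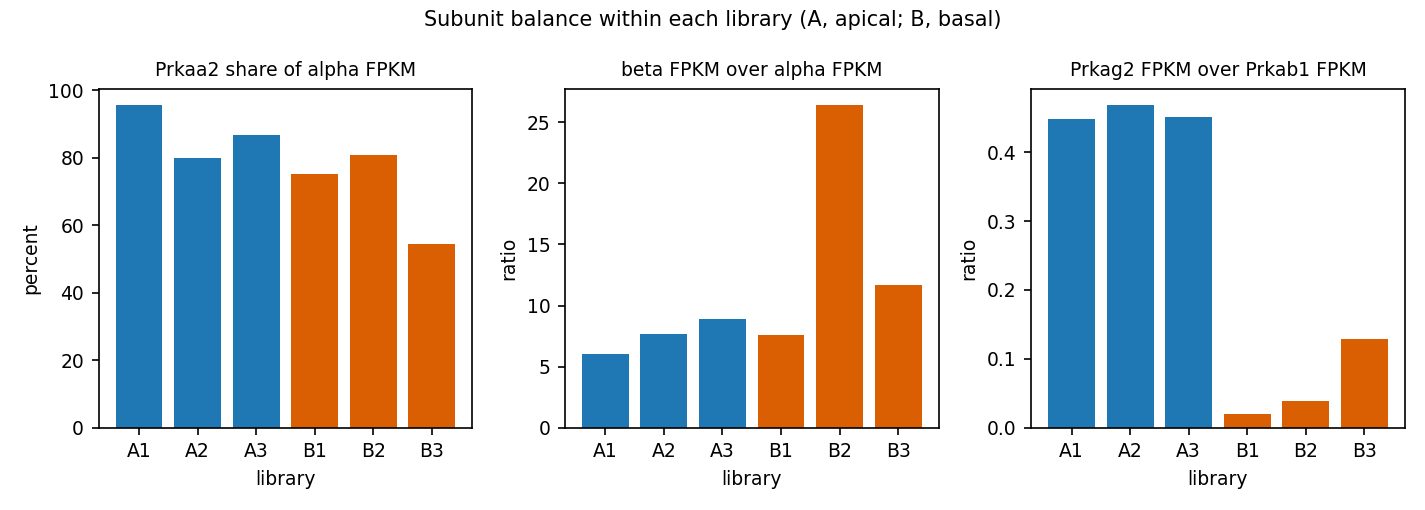
Share of Prkaa2 in the summed alpha FPKM (percent), ratio of summed beta to summed alpha FPKM, and ratio of Prkag2 to Prkab1 FPKM, with 1 bar per library (A for apical, B for basal). The ratio of Prkag2 to Prkab1 is 0.448 to 0.468 in the apical libraries and at most 0.129 in the basal ones, and B2 stands out in the beta to alpha ratio at 26.4.

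Genes with profiles most like each subunit were ranked by the root mean square difference of centred log2 CPM over the 6 libraries among 13506 other genes, as a description. For Prkag2, whose log2 CPM spanned 4.85, these were Synrg (0.40), Dirc2 (0.44) and an unannotated locus of about 1 CPM (0.47). Synrg, a clathrin adaptor partner, had 217, 155 and 139 TMM-scaled CPM in apical and 10.4, 49.0 and 32.6 in basal libraries, the same order of basal libraries as Prkag2. For Prkaa2 they were Twf2, an actin-binding twinfilin (0.20), Rcbtb2 (0.20) and Rnf157 (0.21). For Prkaa1 they were Gps2 (0.13), Glmn (0.14) and Rps19bp1 (0.17), and for Prkab1 Nvl (0.12), RGD1562747 (0.15) and Tmem171 (0.15).

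Other genes of the pathway were compared between turns to see whether regulators or targets of the kinase differed with Prkag2. With edgeR (quasi-likelihood test, p adjusted by Benjamini-Hochberg over all genes), 0 of 61 tested pathway genes passed in either direction, where 0% of 13507 genes passed (0 genes). At an unadjusted p under 0.05 there were also 0 of 61, against 811 of all genes. DESeq2 called 1 of 61, Pik3c3, a lipid kinase of autophagy initiation (log2 fold change 1.31, adjusted p = 0.0373), against 4.50% of the 14724 genes it tested. Of the 61 genes, 31 were lower and 30 higher in basal libraries, with a median log2 fold change of -0.01 beside -0.02 over all genes. Groups did not overlap for 5 genes with apical higher and 5 with basal higher, where 10.4% and 5.40% of all genes did so. A p above the threshold in 3 against 3 libraries does not show that a gene was alike in the turns.

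**Figure D4:**
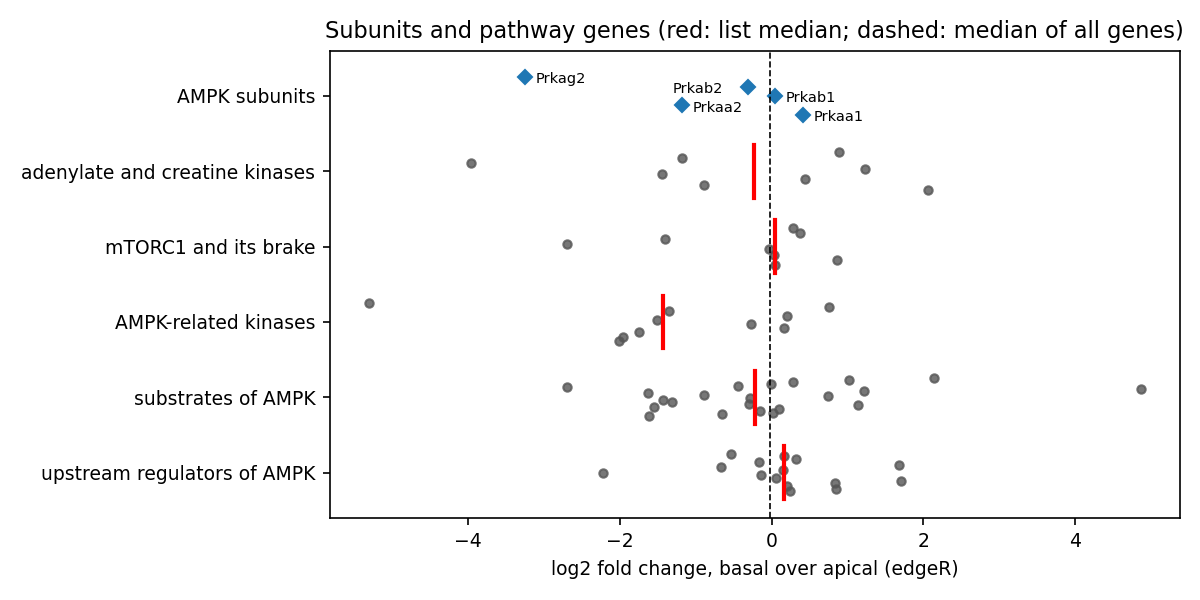
Log2 fold change of basal over apical libraries from edgeR for each tested gene of 5 pathway lists (grey points), with the list median in red and the median of all genes as a dashed line, and above them the 5 tested subunits (blue diamonds). List medians lie between -1.43 and 0.16, and Prkag2 stands at -3.25.

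Upstream regulators of AMPK had 15 of 18 matched genes tested, 5 lower and 10 higher in basal libraries, with a median of 0.16 and 0 passing. Stk11 (the kinase LKB1, which phosphorylates the alpha subunit) had 11, 295 and 314 counts in apical and 17, 560 and 58 in basal libraries, scattered alike in both turns. Its partners Strada, a pseudokinase, and Cab39, a scaffold, were more even, with log2 fold changes of 0.16 (SE 0.60) and 0.23 (SE 0.41). Cab39 had 2488, 1218 and 2207 apical and 1657, 1965 and 1942 basal counts. Camkk2, the calcium-dependent upstream kinase, had 80, 114 and 198 apical counts and was at 0 in basal replicates 1 and 2 with 416 in basal replicate 3. Map3k7 (TAK1) stood at 0.06 (SE 1.40). Flcn (folliculin; 0.83, SE 0.53) and Sesn1 (sestrin 1; -0.67, SE 0.48) had the smallest p of the list and adjusted p = 1.00 by edgeR.

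Substrates of AMPK had 22 of 26 genes tested, 13 lower and 9 higher in basal libraries, with a median of -0.22 and 0 passing. Gpam, an acyltransferase of glycerolipid synthesis, had 3175, 1272 and 1081 apical and 563, 734 and 470 basal counts (log2 fold change -1.32, SE 0.62, edgeR adjusted p = 0.906). Ulk1, the kinase that starts autophagy, had 75, 293 and 298 apical and 1156, 980 and 190 basal counts (2.13, SE 1.07, edgeR adjusted p = 0.965), with basal replicate 3 below the highest apical libraries. The acetyl-CoA carboxylases of fatty acid synthesis, Acaca and Acacb, were low or scattered. Acaca had 96, 86 and 20 apical and 0, 0 and 63 basal counts. Acacb had 520, 1021 and 103 apical and 715, 0 and 154 basal counts.

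Genes of mTORC1, the growth-promoting kinase complex that AMPK restrains, and of its brake had 8 of 9 tested, 3 lower and 5 higher in basal libraries, with a median of 0.04 and 0 passing. Rptor (raptor, which AMPK phosphorylates) had 394, 580 and 616 apical counts and 185, 0 and 0 basal counts (log2 fold change -2.70, SE 2.39). Its fold change was -11.99 without basal replicate 1, a fit against basal libraries at 0 that depends on the prior count and is no bound. Tsc2, the tuberin brake, stood at 0.27 (SE 0.82) and overlapped between turns. Tbc1d7, the third subunit of that brake, had 781, 1077 and 747 apical and 5, 435 and 418 basal counts (-1.40, SE 1.31). Against basal replicate 1 alone Tbc1d7 passed (-7.03, edgeR adjusted p = 0.0495), a single library with 5 counts, in a fit that called 1.69% of 17117 genes and had a median of -1.21 over all genes.

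Kinases related to AMPK, most of which LKB1 also activates, had 10 of 13 tested, 7 lower and 3 higher in basal libraries, with a median of -1.43 and 0 passing. Snrk had 280, 7 and 284 apical and 0, 0 and 12 basal counts, and Sik2, a salt-inducible kinase, had 1266, 232 and 757 apical and 390, 36 and 258 basal counts, so that the turns overlapped for both. Adenylate kinases produce the AMP that the gamma subunit binds, and creatine kinases buffer ATP. Together these 2 groups had 8 of 12 tested, 4 in each direction, with a median of -0.23 and 0 passing. Ckb, brain creatine kinase, had 19177, 22348 and 47983 apical and 3988, 10435 and 18638 basal counts (-1.19, SE 0.57, edgeR adjusted p = 0.931). Ak1, the cytosolic adenylate kinase, had 894, 58 and 217 apical and 1751, 886 and 1082 basal counts (2.06, SE 0.99, edgeR adjusted p = 0.933), and its log2 fold change was 3.52 without apical replicate 1. With a library left out, Stk11, Strada, Camkk2, Map3k7, Acacb and Tsc2 took either sign.

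**Figure D5:**
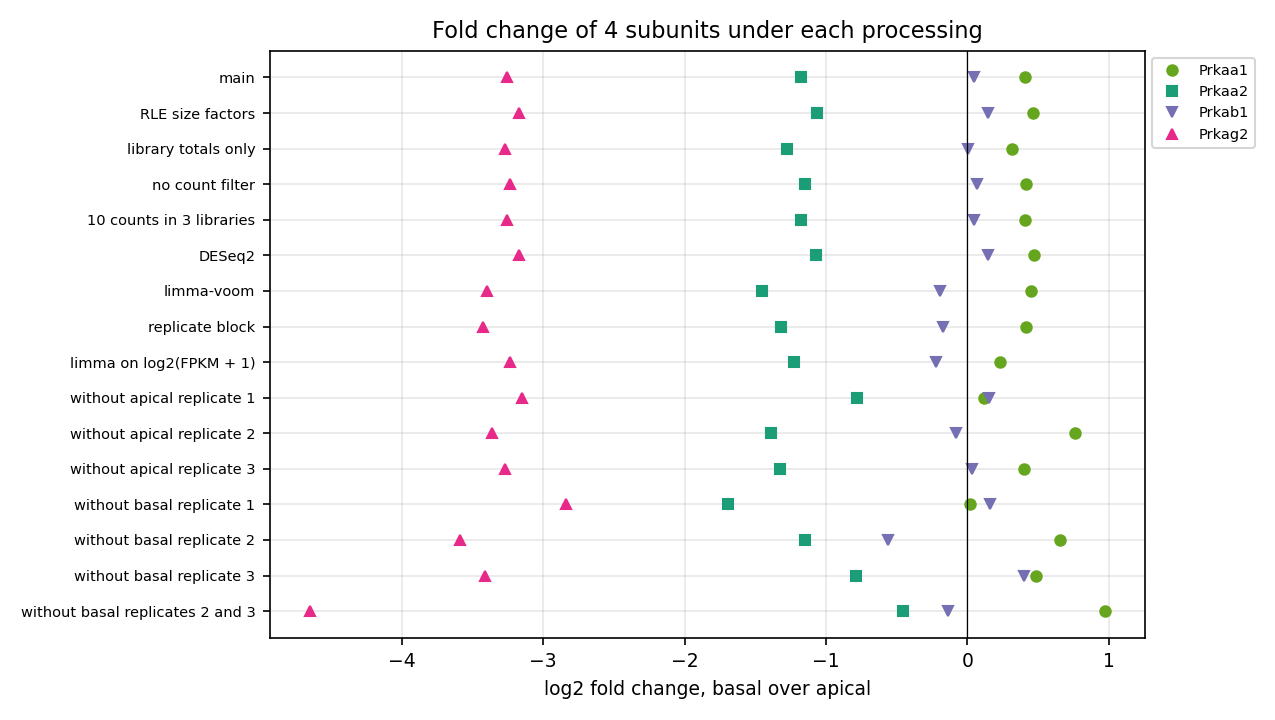
Log2 fold change of basal over apical libraries for 4 subunits (x axis) under the reported fit and each other processing (y axis). Prkag2 stays between -4.65 and -2.84 and Prkaa2 between -1.69 and -0.46, while Prkab1 falls on both sides of 0.

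Under these settings the log2 fold change of Prkab1 ranged from -0.56 to 0.40 and was negative in 6 of 16 fits. Prkab2 ranged from -8.49 to 2.12, and the lowest values come from fits in which it was at 0 in each basal library kept, so that they depend on the prior count and are no bound. Prkaa1 stayed above 0, at 0.02 to 0.97, and was lowest without basal replicate 1.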

How the data were processed

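Per the labels' protocols, 3 µg of total RNA per library was used with a NEBNext Ultra kit; no amplification step is described there. The submitters' processing notes name Bowtie2 2.2.3 and TopHat2 2.0.12. For build, annotation and counter, names were not given in the sources used here. None of the 6 subunit rows overlaps another listed gene. The authors deposited whole-number read counts and FPKM values, per the file headers. The authors' deposited log2 fold changes, p-values and mean normalized signal were not used.

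Counts were tested with edgeR 4.0.16 in R 4.3.3 (filterByExpr, TMM, glmQLFit and glmQLFTest at their defaults, no covariate), with Benjamini-Hochberg adjustment over 13507 genes and a threshold of 0.05. SE was derived as |log2 fold change| over the root of the F statistic. Like profiles used log2 CPM with a prior count of 2. DESeq2 1.42.0 and limma 3.58.1 were alternatives. Tests were checked on simulated data. Python 3.11.15, pandas 2.3.3 and matplotlib 3.10.9 made tables and plots. Promoter windows are from RefSeq (GRCr8).

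The subunits, lists and tests were chosen with earlier results of these data known. Named pathway genes are 10 central ones plus the 2 of smallest p in each list; Pik3c3 was named after its DESeq2 call was seen, and Synrg and the other like genes by profile rank. Of the 80 listed pathway symbols, counted once per list, 78 matched a row, 1 through an older symbol. A floor of 3 counts, 0.130 to 0.182 CPM, stands for a count of 0.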

Additional observations from a re-analysis of the deposited data

How the results depend on the processing

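Other scalings, count filters and tests, each library left out, and, added after seeing the data, basal replicates 2 and 3 left out were compared with the reported fit. Genes called numbered 0 in the reported fit, 8 with no count filter, 663 with DESeq2, 0 to 2 with a library left out (2 without basal replicate 1) and 289 without basal replicates 2 and 3. Called pathway genes numbered 0, except 1 with DESeq2 and 1 without basal replicates 2 and 3. Subunits lower in basal libraries numbered 3 of 5, 2 to 5 with a library left out (where up to 6 were tested) and 5 of 6 without basal replicates 2 and 3. The signs of Prkab1 and Prkab2 turned between settings, and the cause was not tested.

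The replicate number as a replicate block left 0 genes called (567 at an unadjusted p under 0.05, against 811) and gave -3.43 for Prkag2. Same-numbered libraries deviated together with correlations of -0.038, 0.0067 and 0.138, so the numbers were not taken as pairs.

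The isoform differences kept their sign. Without length correction they were -1.35 for the alpha and 8.70 for the beta pair, and both missed the threshold (exact permutation p adjusted over the pairs = 0.0625). Prkab1 still had more counts than Prkab2 in each library, and the beta pair missed it through the adjustment with the alpha pair. With an FPKM of at least 0.1 in both genes they were -2.12 (adjusted p = 0.0625) and 6.69 (adjusted p = 0.25, over 3 libraries), and both missed it too. For the alpha pair this filter kept all 6 libraries, and its adjusted p rose only through the adjustment with the beta pair. For the beta pair, 3 libraries cannot give an exact p below 0.25. With a library left out they were -2.50 to -1.69 and 8.02 to 9.24, where 5 libraries cannot give an exact p below 0.0625. The planned Prkag1 to Prkag2 comparison was not run, since Prkag1 was not analysed here. Prkab2 and Prkag3 were at 0 in 3 and 4 libraries, so their fold changes rest on the few libraries with counts. Both were at 0 in apical replicate 2 and basal replicates 1 and 2, the libraries of lowest total (18617323, 18459189 and 16511675 counts). These libraries also had the fewest genes detected (13094, 11880 and 11244). Prkag3 also had 0 counts in apical replicate 3, which has the largest total. The part of depth in these counts of 0 was not tested.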
